A study of Mus musculus with 7 samples.

Results

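The cortex of mice with familial Alzheimer's disease transgenes (FAD) that had received a control IgG was compared with the cortex of wild-type (WT) mice that had received PBS. The members were the cortex wells named FAD and IgG or WT and PBS, kept only where the well name and the deposited sample sheet gave the same treatment. This left 16 of the 47 wells of the series, 7 from FAD IgG mice and 9 from WT mice, each well from a different mouse. A further 7 cortices of FAD mice treated against CD38 entered the fit for the shared estimate of spread, and 1 cortex named IgG in its well name but CD38 in the sheet was left out. RNA was counted by bulk mcSCRB-seq, in which every well receives a barcode, the 3' ends of its transcripts are tagged, and many wells are sequenced as 1 pool. The series asked what targeting CD38, a surface enzyme that consumes NAD, changes in this model. The labels name neither the FAD line nor the promoters of its transgenes, and give no age or sex. Genotype and injection differ together, since all 7 FAD mice received an antibody and all 9 WT mice received PBS, so their parts cannot be told apart.

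In mice that overproduce human amyloid peptides, plaques build up in the cortex, and microglia gather around them. These microglia turn on a program of lysosomal, lipid-handling and surface receptor genes that depends in part on the receptor Trem2 and its adaptor Tyrobp, and lower the genes of the resting state. Astrocytes near plaques become reactive and make the filament protein Gfap, and interferon-stimulated and antigen presentation genes are commonly switched on as well.

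Total counts ran from 1270918 to 5101368 (median 3090289) in FAD IgG cortices and from 2078974 to 4949220 (median 3509152) in WT cortices. Levels are given as CPM, counts per 1000000 counts of the well. The 7 pools were fitted as an additive factor, and 6 of them held both groups. The 16 cortices carried cortical layer genes at a summed level of 1262 to 1575 CPM in FAD IgG and 1019 to 1620 in WT mice, and 0 of the 18 layer genes tested was called in either direction (edgeR, with 1 higher and 2 lower at an unadjusted p of 0.05, and 0 by DESeq2). On the first principal component of log2 CPM, which held 28.5% of the variance, FAD IgG replicates 4 and 5 scored 43.9 and 64.3 and the other 14 cortices lay between -30.8 and 16.7. The same 2 libraries had the highest share of ribosomal RNA counts, 10.6% and 12.4%, against 2.78% to 4.94% in the other FAD IgG cortices and 3.76% to 7.84% in WT. Results that rest on them are given with and without them.

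**Figure D1:**
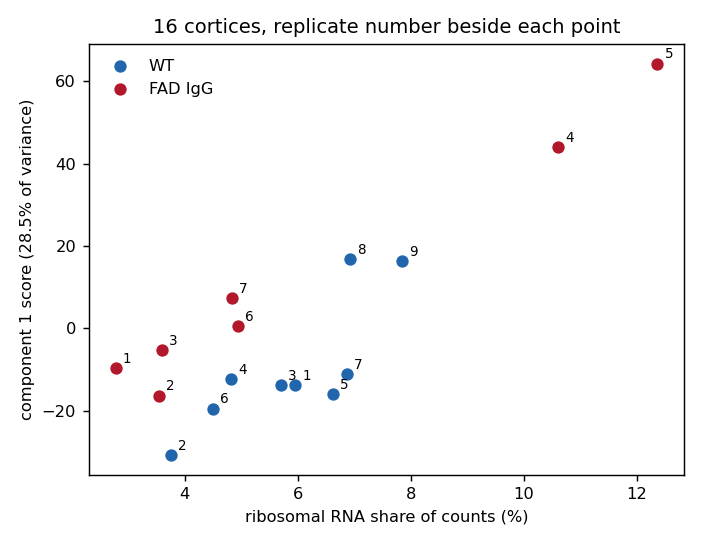
Score on the first principal component (y axis, 28.5% of the variance of log2 CPM) against the share of ribosomal RNA counts (x axis, %) for each of the 16 cortices, with red points for FAD IgG mice, blue points for WT mice and the replicate number beside each point. FAD IgG replicates 4 and 5 lie apart from the other 14 cortices at the highest ribosomal RNA shares, 10.6% and 12.4%.

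The 4 marker genes separated the groups without overlap. Cst7, a cystatin that plaque-associated microglia turn on, was counted at 138 to 216 CPM (median 189) in FAD IgG mice and at 0.606 to 3.35 CPM (median 1.72) in WT mice. It rose by 6.79 ± 0.25 on the log2 scale (SE, edgeR adjusted p = 1.67e-14), the largest fitted fold change of all genes called. The FAD IgG values were close together except for replicate 7, which was the lowest. Trem2, the lipid-sensing receptor of microglia, stood at 161 to 275 CPM (median 221) against 14.7 to 39.3 (median 27.7), a log2 fold change of 2.96 ± 0.18 (adjusted p = 1.04e-10), again with replicate 7 lowest and replicate 3 highest. Gfap ranged from 196 to 408 CPM (median 240) against 20.1 to 36.1 (median 26.8), a log2 fold change of 3.39 ± 0.18 (adjusted p = 7.15e-12). Thy1, a surface glycoprotein of neurons whose promoter is often used to drive transgenes in neurons, lay at 529 to 1157 CPM (median 754) against 140 to 204 (median 158), a log2 fold change of 2.21 ± 0.13 (adjusted p = 1.53e-11). For each of the 4 genes every FAD IgG mouse was above every WT mouse, and the difference had the same direction in all 6 pools that held both groups. In bulk tissue, more cells of a type and more RNA of a gene per cell cannot be told apart, which holds for each result given here.

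**Figure D2:**
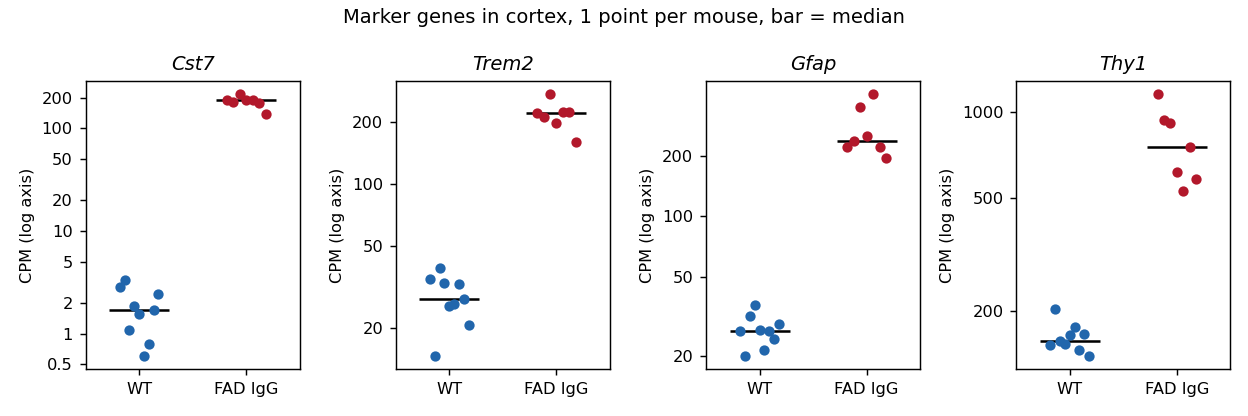
CPM (y axis, log scale) of Cst7, Trem2, Gfap and Thy1 in the cortex of 9 WT mice (blue) and 7 FAD IgG mice (red), 1 point per mouse, with the bar at the median. The groups do not overlap in any of the 4 panels, and the medians of Cst7 are 1.72 and 189 CPM.

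Across the transcriptome more genes were called higher than lower. Of 12968 genes tested, 433 were called higher in FAD IgG cortex (3.34% of those tested) and 69 lower (0.532%), 3.87% in either direction, at an adjusted p of 0.05. The genes called higher had a median log2 fold change of 1.18, and 92 of them rose at least 4-fold and 23 at least 8-fold. The genes called lower had a median of -0.52, and 4 of 69 fell at least 2-fold. The median over all genes tested was 0.01, with 51.7% of estimates above 0 and 48.3% below. At an unadjusted p of 0.05 the counts were closer, with 1088 genes higher and 865 lower, as they were by voom with sample quality weights, with 510 called higher and 307 lower. Of the genes called higher 380 were higher in all 6 pools with both groups, and of those called lower 50 were lower in all 6. In 241 of the 433 genes called higher every FAD IgG mouse was above every WT mouse. In 3 of the 69 called lower every FAD IgG mouse was below every WT mouse. The number called higher lay between 346 and 582 under the alternatives, while the number called lower was 16 without FAD IgG replicates 4 and 5. Leaving out single mice moved the number called lower to 18 (without FAD IgG replicate 4), 35 (FAD IgG 1), 39 (FAD IgG 6), 29, 44, 26 and 22 (WT 1, 3, 5 and 7), or up to 243 (FAD IgG 3) and 135 (WT 8).

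**Figure D3:**
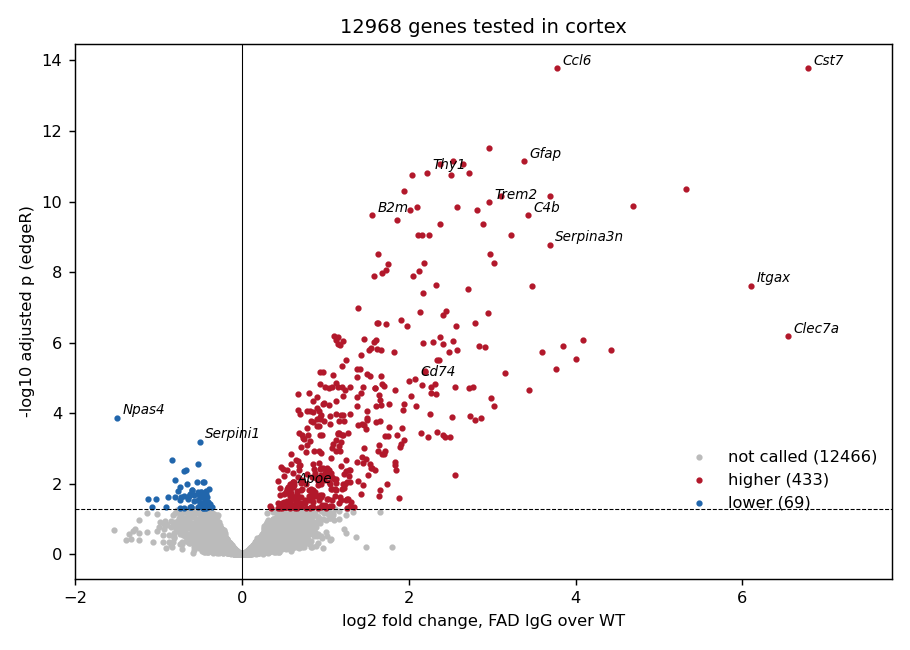
Log2 fold change of FAD IgG over WT cortex (x axis) against -log10 of the edgeR adjusted p (y axis) for the 12968 genes tested, with genes called higher in red (433), genes called lower in blue (69), the others in grey, and the dashed line at an adjusted p of 0.05. Genes called higher reach log2 fold changes of 6.79 (Cst7), while the lowest value among genes called lower is -1.49 (Npas4).

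Most genes listed for plaque-associated microglia were higher. Of 33 tested, 28 were called higher and 0 lower, with a median log2 fold change of 2.51. The list was chosen with earlier results of these data known. Genes nearly absent from WT cortex, such as Clec7a and Itgax, passed the filter on counts only through FAD cortices. Such genes could only be called higher. After Cst7, the chemokine Ccl6 had the smallest p, with 53.7 to 90.6 CPM (median 70.8) in FAD IgG mice and 2.56 to 7.12 (median 5.26) in WT mice (3.78 ± 0.16, adjusted p = 1.67e-14). Lyz2, the lysozyme of macrophages and microglia, was at 122 to 199 CPM against 15.5 to 29.4 (2.96 ± 0.16, adjusted p = 3.01e-12). Cd68, a glycoprotein of phagocyte lysosomes, rose by 2.90 ± 0.20, the secreted galectin ligand Lgals3bp by 2.53 ± 0.14, the growth factor Igf1 by 2.82 ± 0.20 and Lgals3, a galectin that binds damaged lysosomes, by 3.70 ± 0.24. In all of these genes the lowest FAD IgG mouse was above the highest WT mouse.

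Several genes of this program were next to absent from WT cortex. Clec7a, a receptor for fungal glucans that plaque microglia display, had 4 counts over all 9 WT cortices and 5.4 to 22.1 CPM (median 17.5) in FAD IgG mice. Itgax, the integrin CD11c, had 3 counts in WT cortices and 4.10 to 17.3 CPM (median 6.75) in FAD IgG mice. The chemokines Ccl3 and Ccl4, with 8 and 10 counts over the WT cortices, reached 10.4 to 13.9 and 5.50 to 12.2 CPM in FAD IgG mice. Pdcd1, the PD-1 receptor, had 4 counts in WT mice and 1.64 to 6.29 CPM in FAD IgG mice, and Gpr65, a proton-sensing receptor of immune cells, had 7 counts against 1.94 to 6.30 CPM. With so few WT counts the fitted fold changes of these genes depend on the constant added to low counts and are not printed. Gpnmb, a membrane glycoprotein of lipid-laden macrophages, spread more among FAD IgG mice, from 11.1 to 38.5 CPM, against 0.858 to 3.71 (3.77 ± 0.41, adjusted p = 5.69e-06).

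Several RNAs of the Trem2 pathway were higher. Tyrobp, which carries the signal of Trem2 into the cell, lay at 262 to 430 CPM (median 299) against 44.6 to 67.0 (median 60.6), a log2 fold change of 2.51 ± 0.15 (adjusted p = 1.73e-11). Of the 8 pathway genes tested 6 were called higher and 0 lower (median 1.56), among them the phosphatases Ptpn6 (2.38 ± 0.26, adjusted p = 6.73e-07) and Inpp5d (0.95 ± 0.21, adjusted p = 0.00568). The signalling genes Syk, Plcg2, Lat2, Btk, Pik3ap1 and Sh3bp2 were too low to be tested. The calls of Inpp5d and of the kinase gene Pik3cg (1.89 ± 0.35, adjusted p = 0.00091) were lost without FAD IgG replicates 4 and 5. The adaptor Blnk, at 9.44 to 23.3 CPM against 1.44 to 12.6, did not pass (adjusted p = 0.0968). Of 5 genes of receptors for the Fc part of IgG 4 were called higher and 0 lower (median 1.94). Fcgr2b, the inhibitory receptor, stood at 18.9 to 30.2 CPM against 2.86 to 4.84 (2.72 ± 0.16, adjusted p = 1.53e-11), and the activating receptors Fcgr3 and Fcgr1 and their shared chain Fcer1g rose by 1.75 ± 0.15, 1.95 ± 0.29 and 1.94 ± 0.12. Fcgrt, which carries IgG across endothelium, had a log2 fold change of -0.08 and was the 1 gene of 5 not called.

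Genes of resting microglia were also higher, not lower, in FAD IgG cortex. Of 18 tested 11 were called higher and 0 lower, with a median log2 fold change of 0.96. All 18 estimates were above 0, as were 51.7% of those of all genes tested. The fractalkine receptor Cx3cr1 lay at 74.2 to 107 CPM against 37.8 to 54.7 (0.93 ± 0.12, adjusted p = 6.85e-06), and the growth factor receptor Csf1r rose by 1.08 ± 0.15. The purinergic receptor P2ry12 and Tmem119, both lowered in plaque microglia of other models, did not pass. P2ry12 lay at 36.1 to 67.8 CPM (median 45.6) against 24.3 to 44.5 (median 32.8) with an adjusted p of 0.154, and Tmem119 at 20.5 to 49.8 against 20.2 to 36.8 with an adjusted p of 0.349. Both groups overlapped for these 2 genes. Fcrls, an Fc receptor-like gene of microglia, spread most among them, from 20.6 CPM in FAD IgG replicate 6 to 149 in replicate 3, against 14.4 to 35.9 in WT (1.64 ± 0.39, adjusted p = 0.0224).

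Complement and lysosomal genes rose alongside. Of 12 complement genes tested 9 were called higher and 0 lower (median 1.94). The C1q chains that start the classical pathway were at 75.8 to 146 CPM against 20.9 to 35.7 for C1qa (2.25 ± 0.17), at 358 to 631 against 118 to 160 for C1qb (1.86 ± 0.13) and at 237 to 343 against 64.5 to 82.7 for C1qc (2.01 ± 0.14). C4b, which astrocytes and oligodendrocytes also make, reached 57.4 to 117 CPM against 5.25 to 13.3 (3.43 ± 0.22, adjusted p = 2.46e-10). Its near-identical neighbour C4a rose as well, from a WT median of 1.09 to a FAD IgG median of 9.38 CPM, and how reads were divided between the pair is not stated. The receptors C3ar1 (2.38 ± 0.17) and C5ar1 (2.02 ± 0.29) rose, and C3 itself was too low to be tested.

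Of 31 lysosomal genes 22 were called higher and 0 lower, with a median log2 fold change of 0.90. Ctss, a cathepsin of microglia, stood at 528 to 776 CPM (median 614) against 125 to 173 (median 161), a log2 fold change of 2.04 ± 0.12 (adjusted p = 1.73e-11). Ctsz (1.68 ± 0.15), Hexa (1.15 ± 0.13), progranulin (Grn, 1.38 ± 0.18) and the cholesterol carrier Npc2 (0.93 ± 0.13) also rose. Ctsd, the gene of cathepsin D, was listed at only 3.94 to 27.5 CPM in FAD IgG mice and 0.606 to 4.0 in WT mice (2.55 ± 0.52, adjusted p = 0.00565). Its 2 highest values, 24.6 and 27.5 CPM, came from FAD IgG replicates 4 and 5, the libraries of high ribosomal RNA share. In mouse annotation M21, Ctsd shares 808 exon bases on the same strand with the read-through gene Gm49369, which is 79.0% of the exon bases of Gm49369. That entry was counted at 1460 to 2553 CPM (median 2002) in FAD IgG mice and 355.5 to 560 (median 467) in WT mice, a log2 fold change of 2.11 (adjusted p = 1.4e-10). Ctsd thus held between 0.154% and 1.46% of the joint count of both entries in FAD IgG mice and 0.108% to 0.81% in WT mice. The 2 entries cannot be told apart at the shared bases, and Gm49369 was singled out after its values were seen.

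Reactive astrocyte genes rose while genes of resting astrocytes mostly did not. Of 20 reactive astrocyte genes 14 were called higher and 0 lower (median 1.04). Some of them stand in other lists too, such as Psmb8 among class I genes and Gbp2 among interferon-stimulated genes, so these counts are not separate. Serpina3n, a secreted protease inhibitor, lay at 43.9 to 109 CPM (median 87.3) against 2.89 to 12.6 (median 6.82), a log2 fold change of 3.69 ± 0.25 (adjusted p = 1.69e-09), with replicate 7 lowest. The filament gene Vim stood at 66.4 to 131 CPM against 15.9 to 31.6 (2.16 ± 0.16, adjusted p = 9e-10), and the cytokine receptor Osmr and the hyaluronan receptor Cd44 rose by 2.31 ± 0.31 and 1.71 ± 0.23. Over all genes tested 3.34% were called higher. Of the 20 genes of resting astrocytes 1 was called higher and 0 lower (median 0.12). That gene was the water channel Aqp4, at 56.7 to 152 CPM against 24.7 to 51.0 (1.18 ± 0.21, adjusted p = 0.00064), with its highest values in FAD IgG replicates 4 and 5. Its call held without those 2 libraries.

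Interferon-stimulated genes rose in most of those measured. Of 25 tested 17 were called higher and 0 lower, with a median log2 fold change of 1.09. Ifit3, an antiviral protein of the IFIT family, lay at 32.0 to 57.8 CPM (median 41.3) against 10.1 to 18.3 (median 14.5), a log2 fold change of 1.64 ± 0.13 (adjusted p = 3.1e-09). Its near-identical copy Ifit3b rose from a WT median of 6.24 to 18.5 CPM. Ifi27l2a (2.34 ± 0.27), the deubiquitinase-like Usp18 (2.17 ± 0.29), the tetherin gene Bst2 (1.66 ± 0.19) and Ifitm3 (1.17 ± 0.13) were each higher in every FAD IgG mouse than in any WT mouse. The signalling factor Stat2 (6.90 to 14.9 CPM against 3.84 to 8.57, adjusted p = 0.0847) did not pass.

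Factors activated by interferon bind an element whose core reads GAAA, any 2 bases and GAAA again, so the promoters of the list were searched for it on both strands, in the RefSeq promoter table of build GRCm38.p6, which spans 250 bases before to 50 after each start. Of 25 list members with a promoter there, 15 (60.0%) held the element, against 3.99% of all 27025 genes with a promoter and 3.43% of those tested. It was present in 8 of 14 members called higher and in 5 of 7 not called. The stretches around the element nearest to the start are printed for the 4 members called higher that had the smallest p and a match before the start, and for Stat2, which was not called, because they show that called and uncalled members carry the same letters. Capitals mark the element or its reverse complement, 5′ to 3′ on the strand of the gene.
Ifit3 (chr19:34583397-34583426, plus strand): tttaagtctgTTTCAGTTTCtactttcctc
Bst2 (chr8:71537577-71537606, minus strand): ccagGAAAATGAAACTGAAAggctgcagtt
Gbp3 (chr3:142559995-142560024, plus strand): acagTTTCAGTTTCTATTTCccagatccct
Ifit1 (chr19:34640794-34640823, plus strand): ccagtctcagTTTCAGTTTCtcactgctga
Stat2 (chr10:128270266-128270295, plus strand): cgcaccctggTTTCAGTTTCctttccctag
In Bst2 and Gbp3 overlapping copies of the element follow each other. Ifit1 rose by 1.27 ± 0.22 (adjusted p = 0.000358) and Gbp3, an interferon-induced GTPase, by 1.49 ± 0.25 (adjusted p = 0.000278). A match describes the letters and shows no binding.

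Antigen presentation genes rose in both classes. Of 13 class I genes 9 were called higher and 0 lower (median 1.22). B2m, the light chain of all class I molecules, stood at 549 to 744 CPM (median 648) against 199 to 275 (median 219), a log2 fold change of 1.56 ± 0.11 (adjusted p = 2.43e-10). The heavy chains H2-D1 (1.55 ± 0.17) and H2-K1 (1.39 ± 0.14) and the immunoproteasome subunit Psmb8 (1.61 ± 0.18) rose by similar amounts, although reads of H2 heavy chains can be divided among near-identical copies. All 6 class II genes tested were called higher (median 1.58). Cd74, the invariant chain, ranged from 4.72 to 23.1 CPM (median 9.52) against 1.14 to 4.10 (median 2.56), a log2 fold change of 2.07 ± 0.27 (adjusted p = 1.07e-05). H2-Ab1 lay at 16 to 33.7 CPM against 3.42 to 11.5 (2.0 ± 0.26, adjusted p = 1.21e-05), and FAD IgG replicate 6 was highest for both genes.

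Sensors of innate immunity and chemokines followed. Of 8 Toll-like receptor genes and co-receptors 7 were called higher and 0 lower (median 2.26). Tlr1, Tlr4, Tlr6, Tlr9 and Ly96 were too low to be tested. Tlr2, Tlr7 and Cd180 lay at or below 1.44, 2.63 and 1.44 CPM in WT mice. They passed the filter on counts only through FAD cortices and could only be called higher, so the count partly reflects the filter. Ly86, a partner of the receptor Cd180, lay at 87.3 to 134 CPM (median 98.4) against 16.3 to 27.0 (median 20.5), a log2 fold change of 2.38 ± 0.14 (adjusted p = 8.61e-12), and Tlr2, Cd14 and Tlr7 rose by 3.48 ± 0.32, 2.41 ± 0.24 and 2.15 ± 0.37. Of 13 chemokine genes and receptors 6 were called higher and 1 lower. In WT mice Ccl3, Ccl4, Ccl5, Ccl12 and Cxcl16 lay at or below 0.855, 0.818, 2.18, 2.98 and 3.27 CPM. These genes passed the filter on counts only through FAD cortices and could only be called higher, so this count partly reflects the filter. The higher ones included Cxcl16 (2.17 ± 0.25) and Ccl12 (1.84 ± 0.26), and the lower one was Ccl27a (-0.41 ± 0.11, adjusted p = 0.0341), a call lost without any 1 of FAD IgG replicates 1, 2, 4 and 5 and WT replicates 1, 2, 3, 4, 5 and 7. Of 10 inflammasome and tumour necrosis factor genes 3 were called higher, with the adaptor Pycard at 17.6 to 29.2 CPM against 5.72 to 8.94 (1.63 ± 0.17, adjusted p = 2.82e-07). The cytokines Il1b, Il1a and Tnf were too low to be tested.

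Lipid handling genes rose in 8 of 17 tested and fell in 0 (median 0.55), a count of 5 without FAD IgG replicate 4. Lpl, the lipoprotein lipase, was at 27.4 to 62.1 CPM against 10.5 to 22.6 (1.46 ± 0.16, adjusted p = 7.66e-07), and Apod at 432 to 705 against 277 to 472 (0.72 ± 0.13, adjusted p = 0.00041). Of 22 antioxidant and metal-binding genes 4 were called higher. Among these were the peroxiredoxin Prdx6, at 722 to 1145 CPM against 488 to 745 (0.71 ± 0.13, adjusted p = 0.000889), and Nfe2l2, the regulator of antioxidant genes (0.92 ± 0.19, adjusted p = 0.00252). Of 18 cholesterol synthesis genes 3 were called higher and 0 lower, a count of 0 without FAD IgG replicate 4 or WT replicate 5 and of 1 without FAD IgG replicate 1, 6 or 7 or WT replicate 3, 6 or 7. Of 17 genes of CD38 and NAD metabolism 2 were called higher, Naprt, which makes NAD from nicotinic acid (0.95 ± 0.21, adjusted p = 0.00606), and Parp3, which consumes it (1.25 ± 0.27, adjusted p = 0.00434). Cd38 was low in all mice, at 2.17 to 6.56 CPM (median 3.93) in FAD IgG and 0.962 to 3.99 (median 1.91) in WT, the groups overlapped, and it did not pass (0.61 ± 0.33, adjusted p = 0.405).

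In a list of genes related to the transgenes of such models, not all of them genes of familial disease, App and Apoe rose with Thy1. Of the 13 genes of this list 4 were called higher and 0 lower (median 0.28). App, the amyloid precursor, lay at 477 to 1012 CPM (median 608) against 353 to 554 (median 419), with the value of 1012 in FAD IgG replicate 4 and the others at 677 or less. Its log2 fold change was 0.54 ± 0.13 (adjusted p = 0.014), lower in FAD IgG than in WT in 1 of 6 pools, and its call was lost under 5 of 27 alternatives, without FAD IgG replicate 4, FAD IgG replicate 6 or WT replicate 5, without FAD IgG replicates 4 and 5 together, and with only the groups compared in the fit. Apoe, the main lipid carrier of glia, lay at 5512 to 8338 CPM (median 6338) against 3761 to 5030 (median 4121), without overlap, a log2 fold change of 0.61 ± 0.14 (adjusted p = 0.0121), and its call was lost without FAD IgG replicate 3. The homologues Aplp1 and Aplp2, the secretase Bace1 and tau (Mapt) had log2 fold changes between -0.00 and 0.14 and did not pass. A contribution of transgene RNA to the counts of Thy1 and App was not tested, since neither the transgene sequences nor the reference used for counting is stated.

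**Figure D4:**
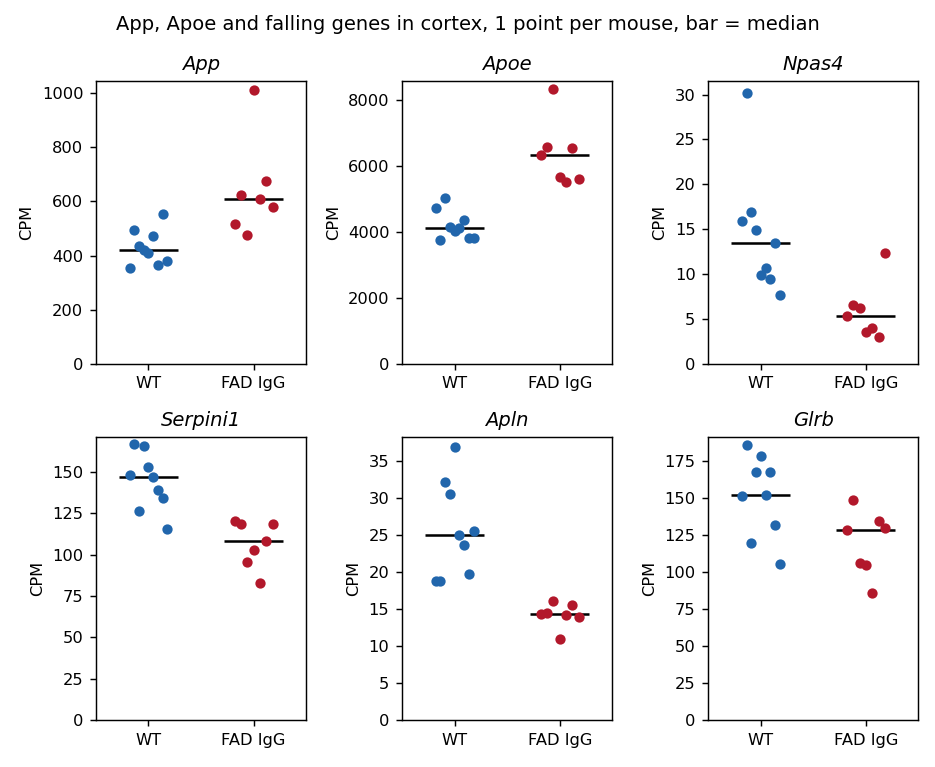
CPM (y axis, from 0) of App, Apoe, Npas4, Serpini1, Apln and Glrb in the cortex of 9 WT mice (blue) and 7 FAD IgG mice (red), 1 point per mouse, with the bar at the median. App reaches 1012 CPM in 1 FAD IgG mouse, Apoe does not overlap between groups, and Npas4 has a median of 5.29 CPM in FAD IgG against 13.4 in WT mice.

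Over the 7 FAD IgG mice, the relation of Cst7 and Gfap did not pass adjustment over the 3 relations computed. Pearson's r of log2 CPM was 0.67 (two-sided exact permutation p = 0.0433, adjusted p = 0.130) and Spearman's rho was 0.86 (p = 0.0238, adjusted p = 0.0714, exact permutation). Without replicates 7 and 3, the mice farthest from the median of Cst7, r was 0.44, so the value rests in part on them. Cst7 and Thy1 had an r of 0.41 (exact permutation p = 0.384, adjusted p = 0.384) and a rho of 0.07 (p = 0.906, adjusted p = 0.906, exact permutation), and r was -0.18 without the same 2 mice. App and Thy1 had an r of -0.48 (exact permutation p = 0.279, adjusted p = 0.384) and a rho of -0.29 (p = 0.556, adjusted p = 0.834, exact permutation), with -0.39 without replicates 4 and 3. Each pool held too few FAD IgG mice for a value within pools.

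The named genes that fell included neuronal and mitochondrial ones. Npas4, a transcription factor switched on by neuronal activity, had the smallest p and the largest fall, with 2.99 to 12.3 CPM (median 5.29) in FAD IgG mice against 7.70 to 30.2 (median 13.4) in WT mice, a log2 fold change of -1.49 ± 0.24 (adjusted p = 0.000133). The overlap came from FAD IgG replicate 7 alone, at 12.3 CPM. Serpini1, the neuronal protease inhibitor neuroserpin, lay at 82.6 to 120 CPM (median 108) against 115 to 167 (median 147), a log2 fold change of -0.51 ± 0.09 (adjusted p = 0.000638). Apln, the apelin peptide gene, lay at 11.0 to 16.1 CPM (median 14.3) against 18.8 to 36.9 (median 25.1), without overlap (-0.84 ± 0.17, adjusted p = 0.0021). Npas4, Serpini1, Apln, the mitochondrial protein gene Mrps36 (-0.52 ± 0.11, adjusted p = 0.00267) and the GABA receptor subunit Gabra5 (-0.54 ± 0.12, adjusted p = 0.00871) kept their call under all 27 alternatives. They were the 5 of 23 named falling genes that did. Btbd17, Pantr1 and Glrb, the beta subunit of glycine receptors (85.8 to 148 CPM against 105 to 186, -0.47 ± 0.11, adjusted p = 0.00864), were lost without FAD IgG replicates 4 and 5.

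Npas4 was the 1 member of the activity-induced genes called. Of 21 tested 0 were called higher and 1 lower, but 19 estimates were below 0, against 48.3% over all genes tested. The median log2 fold change of the 21 genes was -0.36. The number lower was 2 without FAD IgG replicate 1 or WT replicate 9 and 3 without FAD IgG replicate 6. By DESeq2 2 were lower, and at an unadjusted p of 0.05 edgeR had 7 lower and 0 higher. Arc, a synaptic gene translated near active synapses, lay at 54.4 to 184 CPM (median 111) against 94.3 to 214 (median 141) with an adjusted p of 0.0877, and Fos at 12.9 to 46.1 against 30.9 to 61.9 with an adjusted p of 0.286. The lowest Fos value was in FAD IgG replicate 4, at 12.9 CPM. The cyclic AMP response element, written TGACGTCA, was found in the promoters of 2 of the 16 members in the RefSeq table, Btg2 and Dusp1, neither of them called. The share was 2.03% over all genes with a promoter there and 3.73% over those tested.

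Inhibitory and excitatory neuron genes were mostly not called. Of 19 interneuron genes 0 were higher and 1 lower, the neuropeptide Cort, at 9.06 to 20.1 CPM (median 17.2) against 19.7 to 30.6 (median 24.2), a log2 fold change of -0.61 ± 0.15 (adjusted p = 0.0187). Its lowest values, 9.06 and 11.8 CPM, were in FAD IgG replicates 4 and 5, and the call was lost without them, and also without FAD IgG replicate 4, FAD IgG replicate 6, WT replicate 2 or WT replicate 7 alone. Without FAD IgG replicate 3 the number of interneuron genes lower was 2. Of 16 GABA and glycine receptor genes 2 were lower, Gabra5 and Glrb, and 1 without FAD IgG replicates 4 and 5. Of 21 glutamate synapse genes and 20 presynaptic genes 0 were called in either direction by edgeR, with 0 and 1 at an unadjusted p of 0.05 and 0 and 1 by DESeq2, and their median log2 fold changes were 0.12 and 0.05.

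Subunits of mitochondrial complex I, the first enzyme of the respiratory chain, had lower estimates throughout. All 36 estimates were below 0, against 48.3% over all genes tested, with a median log2 fold change of -0.34. Among the 36, 5 were called lower, Ndufb6, Ndufc2, Ndufc1, Ndufv2 and Ndufa5. Ndufb6 lay at 103 to 141 CPM (median 117) against 115 to 183 (median 148), a log2 fold change of -0.45 ± 0.10 (adjusted p = 0.00894), and Ndufc2 at 282 to 378 against 365 to 483 (-0.39 ± 0.10, adjusted p = 0.0142). The groups overlapped for both. The number of subunits called was 0 without FAD IgG replicates 4 and 5 and 0 with only the 2 groups compared in the fit. It was 9 by DESeq2, 10 with the ribosomal RNA share as a covariate and 20 by voom with sample quality weights. It was 1 without FAD IgG replicate 4, 2 without WT replicate 5, 3 without FAD IgG replicate 1, 2, 5 or 6 or WT replicate 1, 2, 3, 4 or 7, and 19, 9 and 10 without FAD IgG replicate 3, FAD IgG replicate 7 and WT replicate 8. Of 36 subunits of complexes II to V 0 were called by edgeR (16 lower at an unadjusted p of 0.05, 2 by DESeq2), with 35 estimates below 0 and a median of -0.23. The number lower was 6 without FAD IgG replicate 3, 2 without FAD IgG replicate 7 or WT replicate 8, 1 without FAD IgG replicate 1 or WT replicate 6, and 10 by voom with sample quality weights. Of 11 genes of the mitochondrial genome 0 were called (7 lower at an unadjusted p of 0.05, 3 by DESeq2), with all 11 below 0 and a median of -0.41. Their number was 4 without FAD IgG replicate 7, 3 without WT replicate 6 or 8, 2 without FAD IgG replicate 3, 1 without FAD IgG replicate 5 or WT replicate 2, and 6 by voom with sample quality weights. Protein genes of the mitochondrial genome took 4.61% to 6.45% of counts in FAD IgG cortices (median 5.96%) and 5.93% to 8.29% in WT cortices (median 7.52%).

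Markers of neighbouring tissue were counted beside these falls. Of 12 striatal genes 11 had estimates below 0, with a median log2 fold change of -0.70, and 0 were called by edgeR (8 lower at an unadjusted p of 0.05, 5 by DESeq2, 7 by voom with sample quality weights, 7 without FAD IgG replicate 3 and 4 without WT replicate 8). Their summed level was 422 to 974 CPM in FAD IgG cortices (median 675) and 727 to 1116 in WT (median 851). Drd1, the dopamine receptor of striatal projection neurons, lay at 4.89 to 17.2 CPM against 14.7 to 27.6 (adjusted p = 0.0692). Penk, the enkephalin precursor, lay at 41.0 to 176 CPM against 93.8 to 221 (adjusted p = 0.12). No defining striatal marker was at 0, and the part of these levels in the falls of neuronal genes was not tested. Pde1b, Scn4b and Gng4, which were singled out after their values were seen because the striatum is rich in them, were called lower, at medians of 50.5, 23 and 23.4 CPM against 77.0, 30.9 and 33.5.

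Other cell types showed few or no calls. Of 20 oligodendrocyte genes 1 was higher, where the share called higher over all genes tested was 3.34%. It was the tight junction gene Cldn11, at 43.8 to 63.7 CPM against 20.7 to 36.1 (0.91 ± 0.14, adjusted p = 6.98e-05). Calls were made for 0 of 12 oligodendrocyte precursor genes (3 higher at an unadjusted p of 0.05, 0 by DESeq2) and 0 of 17 endothelial and mural genes (1 lower at an unadjusted p of 0.05, 0 by DESeq2). Of 12 genes reported in disease-associated oligodendrocytes 5 were higher, among them the protease Klk6 at 18 to 34.6 CPM against 3.38 to 8.69 (2.11 ± 0.16, adjusted p = 8.8e-10), and 3 of the 5, Serpina3n, C4b and Cd9, also stand in other lists above. Blood cell genes summed to 97.0 to 903 CPM in FAD IgG and 121 to 1069 in WT mice, and meningeal genes to 109 to 143 and 101 to 146. For both lists 0 genes were called (edgeR, with 1 and 0 at an unadjusted p of 0.05 and 0 by DESeq2). Ttr, the choroid plexus transthyretin, reached 134 CPM in FAD IgG replicate 3 and 113 in WT replicate 4, against medians of 11.4 and 19.7.

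**Figure D5:**
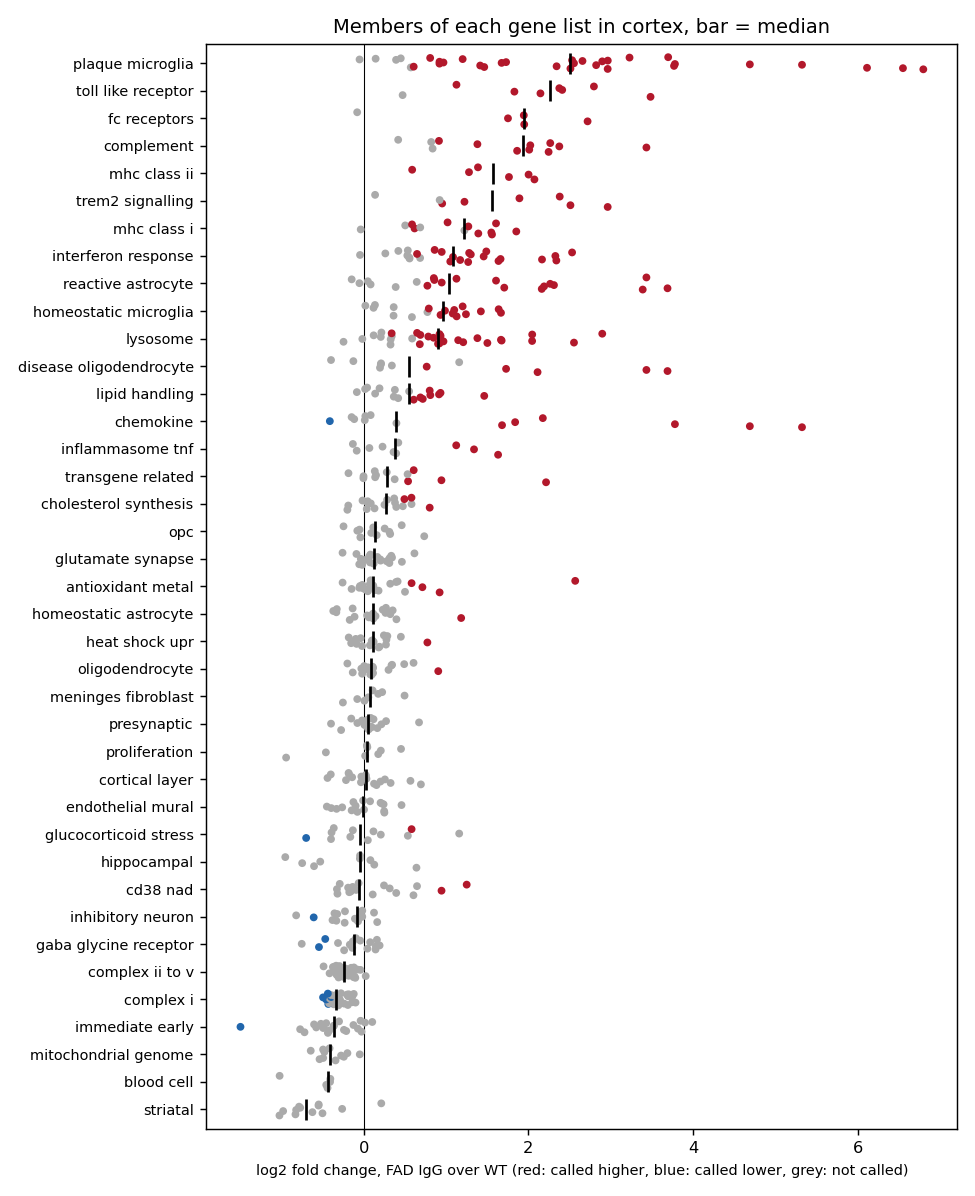
Log2 fold change of FAD IgG over WT cortex (x axis) for the tested members of each gene list with at least 5 of them (y axis, ordered by median), with members called higher in red, called lower in blue and not called in grey, and the bar at the median. Lists of microglia, innate immunity and antigen presentation lie to the right, with a median of 2.51 for plaque microglia, and the mitochondrial, activity-induced and striatal lists lie to the left, with a median of -0.70 for the striatal list.

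The effect was also set against that in the hippocampus, with 7 FAD IgG and 8 WT hippocampi, by an interaction in limma with the mouse as a block. All of these mice also gave a cortex, and no hippocampus of WT replicate 8 was analysed here. Tissue of FAD mice treated against CD38 was also in the fit. The ribosomal RNA share was 17.3% in the hippocampus of WT replicate 9 and 12.8% in that of FAD IgG replicate 4. Protein genes of the mitochondrial genome took 1.25% of counts in the hippocampus of FAD CD38 replicate 4. The region difference was not refitted without these libraries. Of 13447 genes tested, 30 differed (0.223%), 3 with a difference (log2, cortex minus hippocampus) above 0 and 27 below 0. The sign of the difference does not give the region of the larger effect, since 9 of the 30 genes had estimates of opposite sign in the regions, such as Acad9 (0.22 in cortex, -0.36 in hippocampus) and Abhd11os (-0.81 and 0.67). Serpina3n rose more in cortex, with log2 fold changes of 3.67 in cortex and 2.45 in hippocampus (difference 1.22, adjusted p = 0.0101). Klk6 rose by 2.13 in cortex and 3.58 in hippocampus (difference -1.45, adjusted p = 0.000492), and Cd74 by 2.04 and 4.49 (difference -2.45, adjusted p = 0.00255). Gfap, at 3.31 and 2.77, did not pass (adjusted p = 0.366), and neither did Thy1, at 2.17 and 2.5 (adjusted p = 0.607). The count depended on the model, with 9 differences below 0 without the pool, and 156 above and 223 below 0 by voom with sample quality weights.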

How the data were processed

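The authors deposited counts, unnormalised whole numbers with a gene symbol for each line and a well for each column. The submitters' processing notes name bcl2fastq 2.17 and STAR 2.5.3a. The build, the annotation, the counting program and the treatment of molecular identifiers were not given in the sources used here. Mouse, region and treatment of a well came from the deposited sample sheet and the well names, because each deposited sample pools several mice. Nothing in the labels describes cages or litters. Ratios of chi-square to degrees of freedom were 2.95 or more over the 57 pairs of cortices within a group, so none was the same library counted again. A second library made from the same tissue could not be recognised this way.

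The model was edgeR 4.0.16's quasi-likelihood test, robust, run in R 4.3.3 (TMM, genes kept by filterByExpr at a count of 10 and a total of 15, pool as an additive factor, 23 cortices in the fit). Tests were two-sided, with Benjamini-Hochberg adjustment over 12968 genes and calls at 0.05. In any list, genes nearly absent from WT cortex passed filterByExpr only through FAD cortices and could only be called higher. The region difference used limma 3.58.1 (voom). Values in CPM were scaled to the well total, and log2 CPM used a prior count of 2. Each SE (±) was the absolute log2 fold change divided by the square root of the F statistic, as edgeR's test gives none. The code was tested on simulated data. Alternatives were DESeq2 1.42.0, RLE factors, 2 filters, the pool left out, 2 groups only, quality weights, mitochondrial genes left out, high ribosomal RNA libraries left out or the share as a covariate, the conflicting mouse counted as FAD IgG, and each mouse left out.

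The members and the 40 gene lists were chosen with earlier results of these data known. Named genes were the 4 markers, App, Apoe and Cd38, the 10 called genes of smallest p and of largest fold change upward and downward, at most 6 members per list by p with its defining members, and genes that differed between regions. Some named items are not reported here. Totals limit genes of a few CPM, which have few counts per mouse.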

Additional observations from a re-analysis of the deposited data

Results flagged for a closer look

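In 8 of 56 groups of values, 1 mouse lay far from the others by Dixon's test, which chance alone does in about 1 in 20 groups. App was at 1012 CPM in FAD IgG replicate 4, Apoe at 8338 CPM in FAD IgG replicate 3 and Npas4 at 12.3 CPM in FAD IgG replicate 7, each the highest of the 7 mice. Apln was lowest in FAD IgG replicate 4 at 11.0 CPM, and Gabra5 in FAD IgG replicate 5 at 18.1 CPM. Among WT mice, Cd52 was highest in replicate 4 at 16.4 CPM, Npas4 in replicate 2 at 30.2 CPM and C030037D09Rik in replicate 1 at 21.1 CPM.

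The mouse left out for its conflicting labels had levels above every WT cortex, with Cst7 at 188.8 CPM, Gfap at 249.5 CPM, Trem2 at 207 CPM and Thy1 at 927 CPM. These lie within the FAD IgG range for all 4 genes, and say nothing of the antibody it received.

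The FAD IgG effect differed between cortex and hippocampus for 30 genes (limma, adjusted p of 0.05). The log2 difference, cortex minus hippocampus, was above 0 for Serpina3n (1.22), Acad9, a mitochondrial dehydrogenase (0.57), and Gm5124 (0.84). Among immune genes it was -2.45 for Cd74, -2.26 for H2-Eb1, -0.83 for H2-T23, -1.13 for Cd52, -1.50 for Lsp1, -1.95 for Cybb, a subunit of the phagocyte oxidase, -0.95 for C3ar1, -1.0 for Ighm, -1.0 for Hpgds and -1.04 for Srgn. Among secreted or matrix genes it was -2.08 for Endou, -1.45 for Klk6, -2.17 for Timp1, -1.72 for Chrdl1 and -1.12 for P4ha3. It was -1.18 for S100a6, -0.82 for Lgals1, -1.41 for Emp3, -0.70 for Clic1, -1.26 for Nexn, -0.78 for Aldh1l1 and -2.12 for Ccnb1. The remaining values were -1.48 for Abhd11os, -1.26 for Gm42674, -1.35 for 3110082J24Rik, -1.86 for Gm4951 and -1.91 for 4833415N18Rik.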

How the results depend on the processing

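Under 27 alternatives, 95 of 106 named genes called higher kept their call wherever they were tested, and 5 of 23 called lower. A gene that an alternative filter removed was not tested there and was not counted as lost. The number of genes lower in cortex was 69 as reported. It was 156 by DESeq2, 26 with only the 2 groups in the fit, 307 by voom with sample quality weights, 16 without libraries above 10% ribosomal RNA, 232 with that share as a covariate and 126 when the mouse whose labels conflict was added to FAD IgG. Leaving out 1 mouse at a time gave 18 to 243 genes lower and 369 to 465 higher. The difference between regions, cortex minus hippocampus, was above 0 for 156 genes and below 0 for 223 by voom with sample quality weights, and below 0 for 9 without the pool. The cause was not tested. No paired analysis was possible because the mice of the groups compared differ and their replicate numbers follow the order of the mouse numbers and pair nothing. Genes of a few CPM had few counts per mouse, so small changes among them were not detectable at this depth.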

Other observations

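Of the 433 genes called higher, 287 stood in none of the 40 lists. A few of them are given here, chosen after their values were seen. Mpeg1, the pore-forming perforin-2 of macrophages, lay at 20.9 to 37.8 CPM against 2.85 to 5.98, and Ptprc, the leukocyte antigen CD45, at 3.28 to 12.6 against 0.263 to 1.82. Bcl2a1b, a survival gene of the Bcl2 family with near-identical copies, lay at 19.4 to 38.6 CPM against 1.26 to 4.84. The transcription factors of myeloid cells Spi1 (median 6.98 against 3.14 CPM) and Runx1 (8.87 against 1.31 CPM) were higher, as were Stat3 (37.0 against 19.7 CPM) and Cebpd (27.0 against 14.3 CPM), which act downstream of cytokine receptors. All 7 FAD IgG mice were above all 9 WT mice for Mpeg1, Ptprc, Bcl2a1b, Runx1, Stat3 and Cebpd.

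Of 502 genes called in either direction, 501 were found in mouse annotation M21, and 38 of these shared exon bases on the same strand with another gene. In 8 the shared part was at least 50% of their exon bases. Besides Gm49369, these included Gm49339, which shares 92.8% of its exon bases with the inhibitory receptor Lilrb4a and was counted at 3.38 to 12.2 CPM in FAD IgG mice against 0 to 1.14 in WT mice, and Itgam, the integrin CD11b, which shares 68.7% with Gm49368. For such genes the symbol may not name the transcript that was counted.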
